A study of Sus scrofa with 6 samples.

Results

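Superoxide dismutases, catalase and the genes of the NRF2 stress response were followed in RNA-seq libraries of MII-stage oocytes of the pig (Sus scrofa), which rest in metaphase of meiosis II, with and without malathion. The 10 genes were taken by symbol: SOD1, SOD2, CAT, NFE2L2, KEAP1, HMOX1, HMOX2, NQO1, GCLC and GCLM. Each matched 1 of the 25880 Ensembl genes counted. The 3 control libraries carry no other treatment in their labels. The 3 malathion libraries came from oocytes matured in vitro with malathion, an organophosphate insecticide, at 1 mM, diluted from DMSO stock of 0.75 M. Oocytes of both groups came from antral follicles of slaughterhouse ovaries, and the labels give no strain, age, number of oocytes per library or origin of the replicates. The p-values therefore measure only the spread between these libraries, which may be technical. The design text names the question of how malathion affects the mRNA stored in oocytes.

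Superoxide formed by mitochondria and oxidases is turned into hydrogen peroxide by superoxide dismutases, and catalase splits the peroxide into water and oxygen. NFE2L2 encodes NRF2, a transcription factor that KEAP1 hands to a CUL3 ubiquitin ligase for degradation. When oxidants or electrophiles modify KEAP1, NRF2 builds up, pairs with small MAF proteins and activates genes such as HMOX1, NQO1, GCLC and GCLM. A fully grown oocyte transcribes little, so its mRNA levels are set largely by stored transcripts and their decay.

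Gene counts summed to between 25816040 and 42312341 per library, and CPM below are counts scaled to 1000000 of that sum. Between 8344 and 14707 genes had a count, fewest in control replicate 3 and malathion replicate 3. These 2 libraries stood apart: for 8946 of the 10678 genes tested, or 83.8%, both lay below the other 4 libraries in CPM. Their TMM factors, which rescale libraries of unlike composition, were 0.141 and 0.138, against 2.26 to 3.57 elsewhere. Of 20 symbols listed for oocyte markers, 17 matched an identifier, none at 0 in all libraries. Their summed level ran from 6689 to 118505 CPM in control and from 5071 to 125140 CPM in malathion libraries. It was lowest in the replicate 3 libraries of each group. Abundant genes such as BTG4 and DNMT1 carry this sum, and for 12 of the 17 markers both replicate 3 libraries lay below the other 4. Others ran the opposite way in 1 of them: ZP2 stood at 2158 CPM, MOS at 1458 CPM and NOBOX at 54.2 CPM in malathion replicate 3, and OOEP at 382 CPM in control replicate 3, each the highest of the 6 libraries. The part of these library differences in the results below was not tested.

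SOD1 (ENSSSCG00000021355), the copper and zinc enzyme of the cytosol, stood at 11.0, 6.12 and 0.0339 CPM in control replicates 1, 2 and 3. In malathion replicates 1, 2 and 3 it stood at 5.27, 14.8 and 0 CPM. Both replicate 3 libraries were nearly empty of it, with 1 and 0 counts, and the groups overlapped. A count of 0 in malathion replicate 3 allows a level of up to 0.0709 CPM, taking 3 counts as the limit. SOD2 (ENSSSCG00000040317), the manganese enzyme of the mitochondrial matrix, stood at 34.0, 21.0 and 4.44 CPM in the control and at 37.6, 40.9 and 5.67 CPM in the malathion libraries. On library totals it was lowest in the same replicate 3 libraries but kept 131 and 240 counts there. With TMM factors it was highest in those libraries instead, at 31.6 and 41.0 CPM against 5.89 to 16.7 CPM elsewhere. In bulk RNA, fewer cells of a type and less RNA per cell cannot be told apart, and the input to these libraries was not measured. Their gene counts summed to 29471856 and 42312341, the latter the highest of the 6.

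CAT (ENSSSCG00000013302), the peroxisomal catalase, stood at 399, 107 and 5.09 CPM in control replicates 1, 2 and 3. In the malathion libraries it stood at 348, 472 and 1.68 CPM. The highest library held 282 times the level of the lowest, the widest span of the 6 members with more than 3 counts in every library. Control replicate 1 and malathion replicates 1 and 2 were high, control replicate 2 was intermediate and both replicate 3 libraries were low, so the groups overlapped. The mean was 171 ± 205 CPM in control and 274 ± 244 CPM in malathion libraries (SD, n = 3 each), a difference smaller than either SD.

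**Figure D1:**
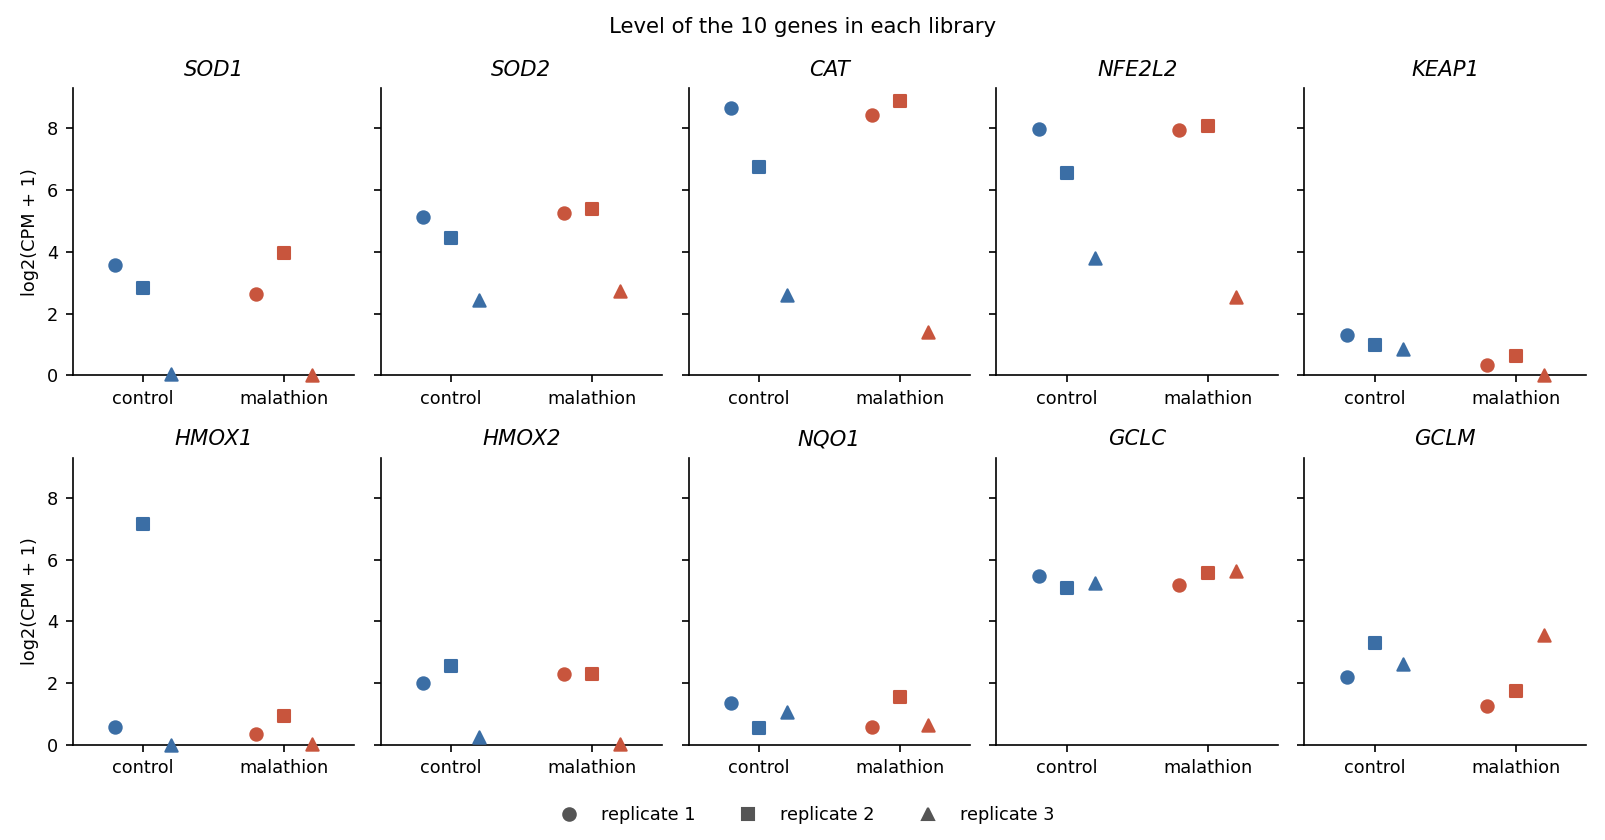
Level of each of the 10 genes on a log2(CPM + 1) axis, with control libraries in blue and malathion libraries in red, and the marker shape giving the replicate number. On this scale of library totals SOD1, SOD2, CAT and NFE2L2 are low in both replicate 3 libraries. HMOX1 is high in control replicate 2 alone at 139.6 CPM, and GCLC is level across all 6 libraries at 32.7 to 48.7 CPM.

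NFE2L2 (ENSSSCG00000015987) followed the same order of libraries as CAT at the extremes. It stood at 254, 92.5 and 12.9 CPM in control replicates 1, 2 and 3 and at 246, 271 and 4.77 CPM in the malathion libraries. Control replicate 1 and malathion replicates 1 and 2 lay between 246 and 271 CPM, and the groups overlapped. The group means were 120 ± 123 and 174 ± 147 CPM (SD, n = 3 each).

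KEAP1 (ENSSSCG00000023667), the repressor of NRF2, was scarce. It stood at 1.48, 0.959 and 0.814 CPM in control replicates 1, 2 and 3, from 41, 26 and 24 counts. In malathion replicates 1, 2 and 3 it stood at 0.271, 0.540 and 0 CPM, from 7, 15 and 0 counts. Each malathion library lay below each control library, which made KEAP1 the 1 member of 10 whose groups did not overlap. Over all genes tested, 80 of 10678, or 0.749%, had groups that did not overlap in CPM, of which 54, or 0.506%, were lower and 26, or 0.243%, higher after malathion. The margin was within counting error: the exact 95% Poisson interval ran from 0.522 to 1.21 CPM in control replicate 3 and from 0.302 to 0.891 CPM in malathion replicate 2. Counting error is all that such intervals cover, because PCR copies without molecular identifiers are not independent. The group means were 1.08 ± 0.348 CPM and 0.270 ± 0.270 CPM (SD, n = 3 each).

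HMOX1 (ENSSSCG00000039745), the inducible heme oxygenase, was read almost wholly in 1 control library. It had 14, 3785 and 0 counts in control replicates 1, 2 and 3, or 0.504, 139.6 and 0 CPM. Malathion replicates 1, 2 and 3 had 7, 25 and 1 counts, or 0.271, 0.90 and 0.0236 CPM. Control replicate 2 held 98.8% of the CPM summed over libraries, and the other 5 libraries of both groups overlapped at or below 0.90 CPM. Over 90% of the summed CPM lay in control replicate 2 for 77 of the 10678 genes tested, or 0.721%. HMOX2 (ENSSSCG00000007942), the constitutive heme oxygenase, showed no such peak. It stood at 3.02, 4.87 and 0.204 CPM in the control and at 3.91, 3.89 and 0.0236 CPM in the malathion libraries, again lowest in replicate 3 of each group. With TMM factors control replicate 3 was the highest control at 1.45 CPM, against 1.27 and 1.36 CPM, while malathion replicate 3 stayed lowest at 0.171 CPM. These replicate 3 values rest on 6 and 1 counts, so the order of the controls lies within counting error.

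Macrophages that clear red blood cells are rich in HMOX1, so markers of macrophages and blood are given beside it. Of 18 such markers, 17 matched, and their sum was 21.0, 58.7 and 0.645 CPM in control and 19.6, 20.8 and 0.567 CPM in malathion replicates 1, 2 and 3. Of the 58.7 CPM in control replicate 2, ITGAM made up 46.4 CPM. Of the 17 markers, 8 had their highest level in that library, ITGAM, CD3E, PTPRC, CD79A, CD68, ALAS2, AIF1 and SLC4A1. Only 3 of the 17 markers were tested, and 2 of these were highest there, as were 5836 of all 10678 genes tested, or 54.7%. That share does not cover untested markers, so 8 of 17 cannot be set against it. The T cell gene CD3E stood there at 6.86 CPM, from 186 counts, against at most 0.465 CPM elsewhere. PTPRC stood at 1.96 CPM, CD79A at 1.18 CPM, CD68 at 0.849 CPM, ALAS2 at 0.553 CPM, AIF1 at 0.406 CPM and SLC4A1 at 0.111 CPM. The 7 markers AHSP, CD14, CD163, CSF1R, LYZ, MARCO and TYROBP were at 0 in that library, and the other 2, HBB and MRC1, were higher in another. The part of cells with these markers in the HMOX1 result was not tested. Markers of cumulus and granulosa cells (17 of 20 matched) summed to 39.0 to 668 CPM in control and 68.6 to 744 CPM in malathion libraries, with AMH and AREG at 0 in each library. Markers of theca, stroma and endothelium (15 of 16 matched) summed to 10.4 to 139 CPM in control and 13.5 to 88.9 CPM in malathion libraries, highest in control replicate 2. CDH5, CYP17A1, INSL3 and PDGFRB were at 0 throughout, and 121 of the 139 CPM in control replicate 2 came from TEK.

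GCLC (ENSSSCG00000001488), the catalytic subunit of the ligase that makes the rate-limiting step of glutathione synthesis, was level across libraries. It stood at 43.1, 32.7 and 36.7 CPM in control replicates 1, 2 and 3 and at 34.7, 46.5 and 48.7 CPM in the malathion libraries. The replicate 3 libraries, so low for SOD1, CAT and NFE2L2, were at the level of the others here, and the groups overlapped. Its highest CPM was 1.49 times its lowest, which ranked 5 among the 5331 genes tested with a mean of at least 10 CPM. Of these genes, 40, or 0.750%, spanned at most 2 times. This steadiness was singled out after its values were seen, and it holds on library totals: with TMM factors GCLC stood at 261 and 352 CPM in the replicate 3 libraries against 9.15 to 18.1 CPM elsewhere.

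GCLM (ENSSSCG00000037549), the modifier subunit that raises the activity of GCLC, varied more. It stood at 3.60, 8.85 and 5.09 CPM in the control and at 1.39, 2.38 and 10.8 CPM in the malathion libraries. The malathion libraries held both the lowest values and the highest, which was replicate 3. NQO1 (ENSSSCG00000002754), a quinone reductase of the cytosol and a classical NRF2 target, had 43, 12 and 32 counts in control and 13, 53 and 24 counts in malathion replicates 1, 2 and 3. That is 1.55, 0.443 and 1.09 CPM against 0.504, 1.91 and 0.567 CPM, with no order by group or replicate number on library totals. With TMM factors NQO1 stood at 7.72 and 4.10 CPM in control replicate 3 and malathion replicate 3, and at 0.124 to 0.714 CPM in the other 4 libraries. On library totals both replicate 3 libraries lay below the other 4 for SOD1, SOD2, CAT, NFE2L2, HMOX1 and HMOX2, that is 6 of 10 members. The share over all genes tested was 83.8%. KEAP1, NQO1, GCLC and GCLM did not follow this pattern. With TMM factors it held for SOD1 alone. Control replicate 3 then exceeded control replicate 2 for SOD2, CAT, NFE2L2 and HMOX2, for CAT at 36.2 against 30.1 CPM. For HMOX2 that rests on 6 counts in control replicate 3.

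Malathion and control were compared with edgeR's quasi-likelihood F test over all 10678 genes that passed the filter on low counts, with TMM factors and Benjamini-Hochberg adjustment. All 10 members passed the filter and none of them was called (adjusted p = 0.9998 for each), against 0% of all genes tested. An unadjusted p under 0.05 was found for 2 members, KEAP1 and HMOX1, and for 383 of all genes, or 3.59%. With the replicate number as a block, no member and 120 of all genes were under 0.05. Without both replicate 3 libraries HMOX1 was the 1 member under 0.05, and without control replicate 2 KEAP1 was. Of the members 6 had a positive and 4 a negative log2 fold change (malathion minus control). Their median was 0.19, against −0.08 over all genes tested. With library totals in place of TMM factors the median over all genes moved to −0.33, and the members were split 5 to 5 around a median of 0.08.

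Among the enzymes, the log2 fold change was 0.25 ± 1.55 (SE) for SOD1, 0.50 ± 0.97 for SOD2 and 0.56 ± 1.19 for CAT. None passed edgeR's test, and the 95% intervals ran from −3.07 to 3.57, from −1.58 to 2.58 and from −1.99 to 3.10. Differences of 4-fold in either direction thus lie within the intervals of SOD1, and an increase of that size within those of all 3. Without malathion replicate 2 SOD1 stood at −0.88, and without control replicate 1 it stood at 1.39. SOD2 ranged from −0.080 without malathion replicate 3 to 1.27 without control replicate 3, and CAT from 0.10 without malathion replicate 2 to 1.80 without control replicate 1. For NFE2L2 the fold change was 0.13 ± 1.02, from −0.28 without control replicate 2 to 0.51 without malathion replicate 3.

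KEAP1 had a log2 fold change of −4.05 ± 1.78 (SE; edgeR, unadjusted p = 0.0390, adjusted p = 0.9998), ranking 318 of 10678 genes by p. Its size rests on control replicate 3: there 24 counts became 5.79 CPM after the TMM factor, against 0.269 and 0.618 CPM in the other controls. Without that library the fold change was −1.78, without both replicate 3 libraries −1.44, and with library totals −1.99 ± 2.81 (unadjusted p = 0.478). The direction was negative in each of the 15 alternatives run, but these reuse the same 6 libraries and are not separate evidence. The adjusted p lay between 0.780 and 1.00 in the alternatives that gave one.

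HMOX1 had a log2 fold change of −5.92 ± 2.03 (SE; edgeR, unadjusted p = 0.0109, adjusted p = 0.9998), ranking 74 of 10678. Without control replicate 2 the sign turned, to 0.59. Without the filter on low counts, HMOX1 passed edgeR's test (adjusted p = 0.0382 over 16852 genes) as 1 of 60 genes. DESeq2 gave HMOX1, GCLC and GCLM a fold change but no p. For HMOX2 the fold change was −0.24 ± 1.39, and 0.25 without malathion replicate 3.

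The fold changes of NQO1, GCLC and GCLM turned with single libraries. GCLM had 1.00 ± 1.59, but −0.27 ± 2.36 with library totals, 3.73 when control replicate 3 was left out and −4.10 when malathion replicate 3 was. GCLC had 0.42 ± 1.48 over all libraries, and leaving out control replicate 3 gave 3.23 where leaving out malathion replicate 3 gave −2.52. For NQO1 the values were −0.75 ± 1.66, then 2.05 and −2.48. After TMM factors, GCLM stood at 36.2 and 78.1 CPM in control replicate 3 and malathion replicate 3 and at no more than 2.48 CPM in the other 4 libraries.

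**Figure D2:**
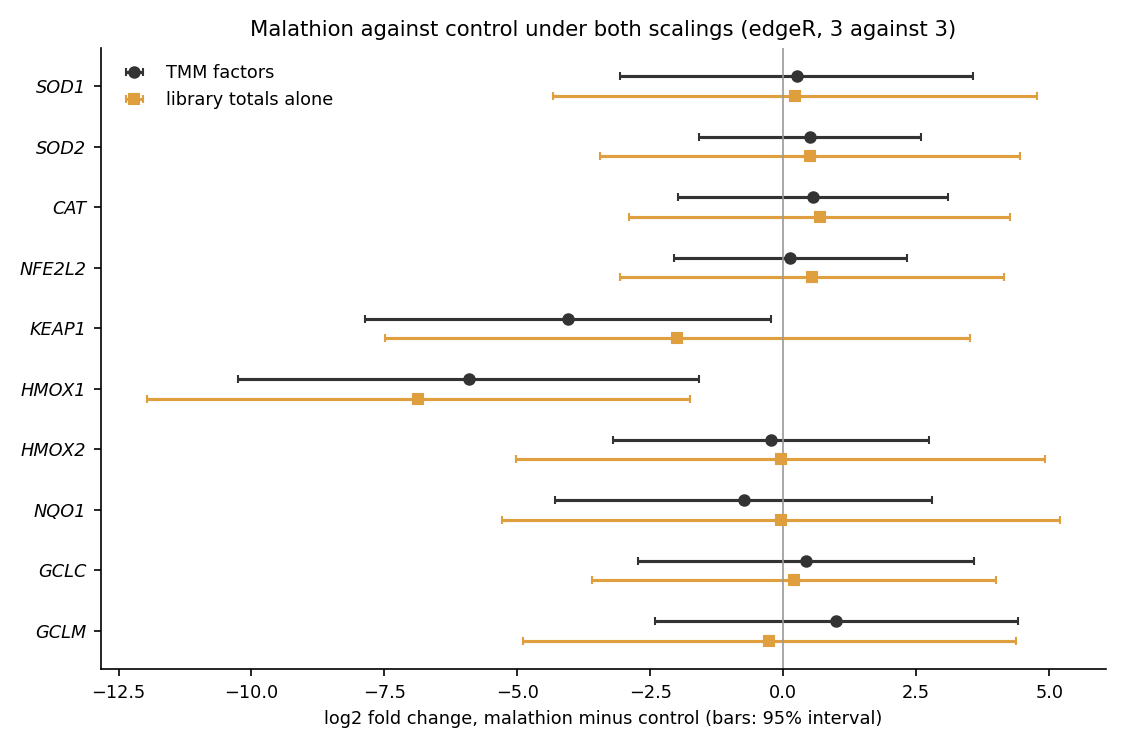
Log2 fold change of malathion minus control for the 10 genes from edgeR over 3 against 3 libraries, with bars for the 95% interval, TMM factors in black circles and library totals in orange squares. With TMM factors the intervals of KEAP1 and HMOX1 leave out 0, with library totals only that of HMOX1 does, and the other 8 genes include 0 on both scales.

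**Figure D3:**
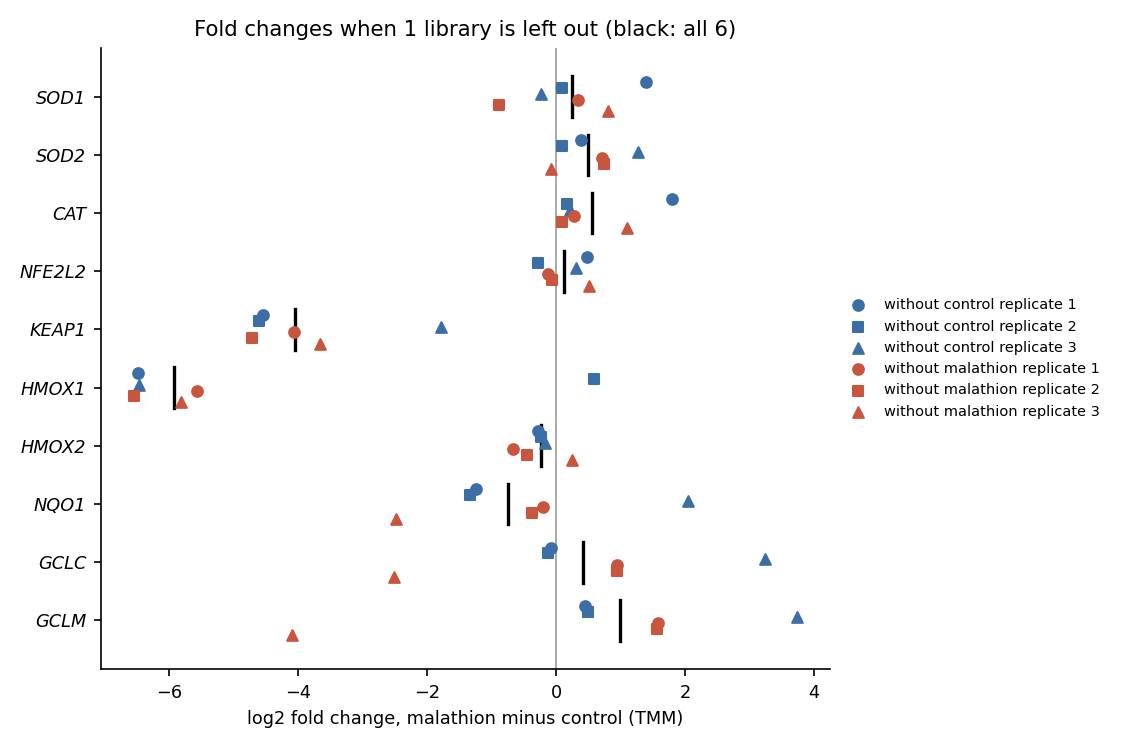
Log2 fold change of malathion minus control (TMM factors) with each library left out in turn; the black line is the value with all 6 libraries, blue markers leave out a control and red markers a malathion library. HMOX1 moves from −5.92 to 0.59 without control replicate 2, and NQO1, GCLC and GCLM turn to opposite signs when the replicate 3 library of the control or of the malathion group is left out.

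Ratios of 2 genes within a library do not depend on the library's scaling, so 5 pairs of members were compared in this way, as ratios of counts plus 1. They are set side by side only across libraries, since transcript lengths were not used. NFE2L2 exceeded KEAP1 by 168, 92.9 and 15.3 times in control replicates 1, 2 and 3 and by 794 and 471 times in malathion replicates 1 and 2. Malathion replicate 3 had 202 counts of NFE2L2 and 0 of KEAP1, so its ratio is at least 67.3 with 3 counts as the limit. That bound lies below control replicates 1 and 2, so the ratios of the groups cannot be said not to overlap. With 1 count added they did not overlap, with mean log2 ratios of 5.95 ± 1.80 and 8.73 ± 0.99 (SD, n = 3 each). The difference of 2.77 had an exact two-sided permutation p of 0.1, the smallest that 3 against 3 libraries allow, and an adjusted p of 0.5 over the 5 ratios. The counts of KEAP1 are the same as those above, so this ratio is not a separate measurement of it. With 5 counts added in place of 1 the difference was 1.88 (exact permutation p = 0.3), and without control replicate 3 it was 1.76.

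GCLC exceeded its partner GCLM by 11.9, 3.68 and 7.17 times in the control and by 24.3, 19.3 and 4.50 times in the malathion libraries. Malathion replicates 1 and 2 had the highest ratios and malathion replicate 3 lay among the controls (difference in log2 ratio 0.92, exact permutation p = 0.3, adjusted p = 0.7). The ratio of HMOX1 to HMOX2 was 28.5 in control replicate 2 and between 0.0784 and 0.239 in control replicate 1 and malathion replicates 1 and 2. In control replicate 3 and malathion replicate 3 it rested on 0 and 1 counts of HMOX1 beside 6 and 1 counts of HMOX2. SOD1 stood at 0.141 to 0.362 of SOD2 in the 4 libraries of replicates 1 and 2, and had 1 and 0 counts beside 131 and 240 of SOD2 in control replicate 3 and malathion replicate 3. The ratio of CAT to SOD1 lay between 17.4 and 65.7 in the 4 libraries of replicates 1 and 2. In the replicate 3 libraries CAT had 150 and 71 counts beside the 1 and 0 of SOD1, too few to set that ratio. For these 3 ratios, whose replicate 3 values rest largely on the added count, the exact permutation p was 0.7, with an adjusted p of 0.7.

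**Figure D4:**
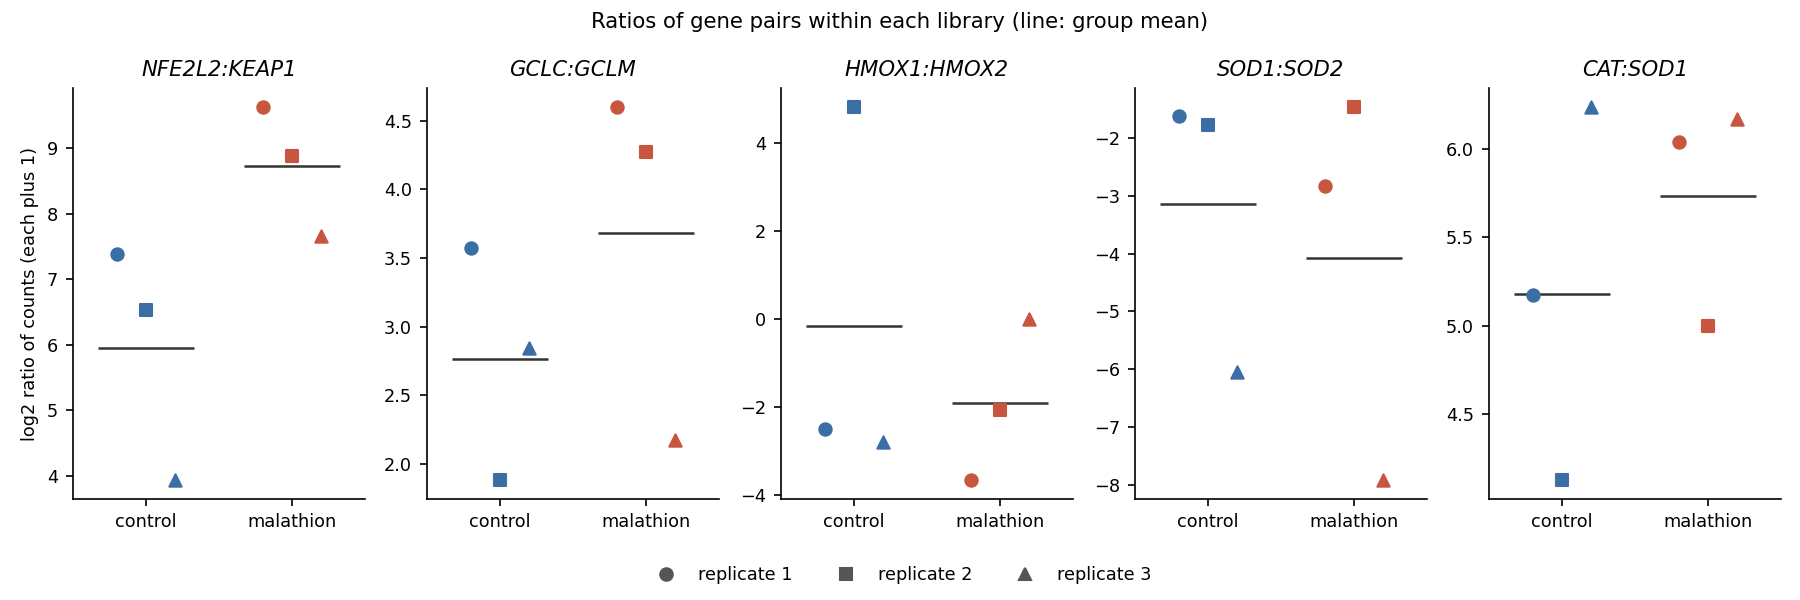
Log2 ratio of counts plus 1 for 5 gene pairs within each library, with control in blue, malathion in red, marker shape for the replicate number and a line at the group mean; each panel has its own axis. The NFE2L2:KEAP1 ratio is higher in each malathion library than in each control library with 1 count added, where the point of malathion replicate 3 comes from 0 counts of KEAP1, while the other 4 ratios overlap between the groups.

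Other genes of the pathway were read from 4 fixed lists. Of 28 regulators of NRF2 besides NFE2L2 and KEAP1, 26 matched and 23 were tested, with 9 higher and 14 lower after malathion, none called and a median log2 fold change of −0.09. BACH1, which competes with NRF2 for the same DNA elements and represses HMOX1, stood at 32.2, 11.4 and 777 CPM in control and at 31.8, 40.9 and 738 CPM in the malathion libraries. On library totals it was the 1 regulator of 23 tested that was higher in both replicate 3 libraries than in the other 4. That pattern was found for 191 of all 10678 genes, or 1.79%, on the same scale. With TMM factors, which raise both replicate 3 libraries, BACH1 was not alone, since CUL3 had this pattern too. The log2 fold change of BACH1 was −0.04 ± 2.70. CUL3, the ligase scaffold that KEAP1 binds, stood at 14.2 to 33.2 CPM in control and 9.19 to 22.5 CPM in malathion libraries. MAFG, a small MAF partner of NRF2, reached at most 5.53 CPM. SQSTM1, an autophagy receptor that sequesters KEAP1, stood at 201, 133 and 2.88 CPM in control and 144, 204 and 3.05 CPM in malathion libraries. The regulators with the highest mean CPM were CAND1, an exchange factor of cullin ligases, at 21.7 CPM in control replicate 3 and 559 to 935 CPM elsewhere, and SKP1, an adaptor of another cullin ligase, at 79.6 to 558 CPM.

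Of 39 further NRF2 targets, 36 matched and 29 were tested, with 13 higher and 16 lower, none called and a median of −0.20. TXNRD1, a thioredoxin reductase, stood at 4.57, 49.1 and 0.238 CPM in control and 7.09, 9.0 and 1.75 CPM in malathion libraries. SRXN1, which repairs overoxidised peroxiredoxins, peaked in control replicate 2 too, at 3.39 CPM against at most 0.972 CPM elsewhere. SLC7A11, the cystine importer that feeds glutathione synthesis, stood at 78.6, 148 and 0.441 CPM in control and 70.9, 95.5 and 0.0473 CPM in malathion libraries. Of the 29 targets tested, 18 had their highest CPM in control replicate 2, as did 5836 of all 10678 genes tested, or 54.7%. TXNL1, a thioredoxin-like protein, and AKR1B1, an aldose reductase, had the highest means of the list, at 150 and 143 CPM. Both replicate 3 libraries lay below the other 4 for these genes, as for 27 of the 29, against 83.8% of all genes tested.

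Among partners of superoxide and peroxide handling, 27 of 29 matched and 21 were tested, with 8 higher and 13 lower, none called and a median of −0.20. CCS, the chaperone that loads copper into SOD1, stood at 1.48, 1.11 and 0 CPM in control libraries. In malathion libraries it stood at 2.05, 2.30 and 0 CPM, so it was at 0 where SOD1 had 1 and 0 counts. Both replicate 3 libraries lay below the other 4 for 19 of the 21 partners tested, against 83.8% of all genes tested. SOD3, the extracellular dismutase, and the oxidase genes NOX1 and NOX5 were listed at 0 in each library. So was GPX4, a glutathione peroxidase that most cells use, so a gene listed at 0 is not read as absent. PRDX2, a peroxiredoxin that reduces hydrogen peroxide, stood at 325 to 372 CPM in 4 libraries and at 1.05 and 1.84 CPM in the replicate 3 libraries.

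Of 17 genes of heme metabolism, some of which are also NRF2 targets, 16 matched and 11 were tested, with 5 higher and 6 lower, none called and a median of −0.29. BLVRB, a biliverdin reductase that acts after heme oxygenase, stood at 6.38 CPM in control replicate 2 and 0 in the other 5 libraries, and was not tested. BLVRA, the other biliverdin reductase, stood at 5.25, 9.67 and 0 CPM in control and at 2.71, 2.95 and 0 CPM in malathion libraries. Of the 11 tested, 5 had their highest CPM in control replicate 2, against 54.7% of all genes tested. The highest means of the list were those of FLVCR2, at 23.1 CPM, and PGRMC1, a heme-binding membrane protein, at 12.6 CPM.

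The medians of these 4 lists follow the libraries that enter. With TMM factors and all libraries they lay between −0.09 and −0.29, beside −0.08 over all genes tested. With library totals they lay between −0.45 and −0.52, beside −0.33, and the splits of higher to lower became 6 to 17 for the regulators, 7 to 22 for the targets, 5 to 16 for the partners and 4 to 7 for heme metabolism, beside 3598 to 7080 over all genes. Without control replicate 2 the 4 medians were positive, between 0.030 and 0.39, beside 0.22 over all genes. Without both replicate 3 libraries the targets and the heme genes had medians of 0.07 and 0.13, and the regulators and partners −0.15 and −0.33.

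**Figure D5:**
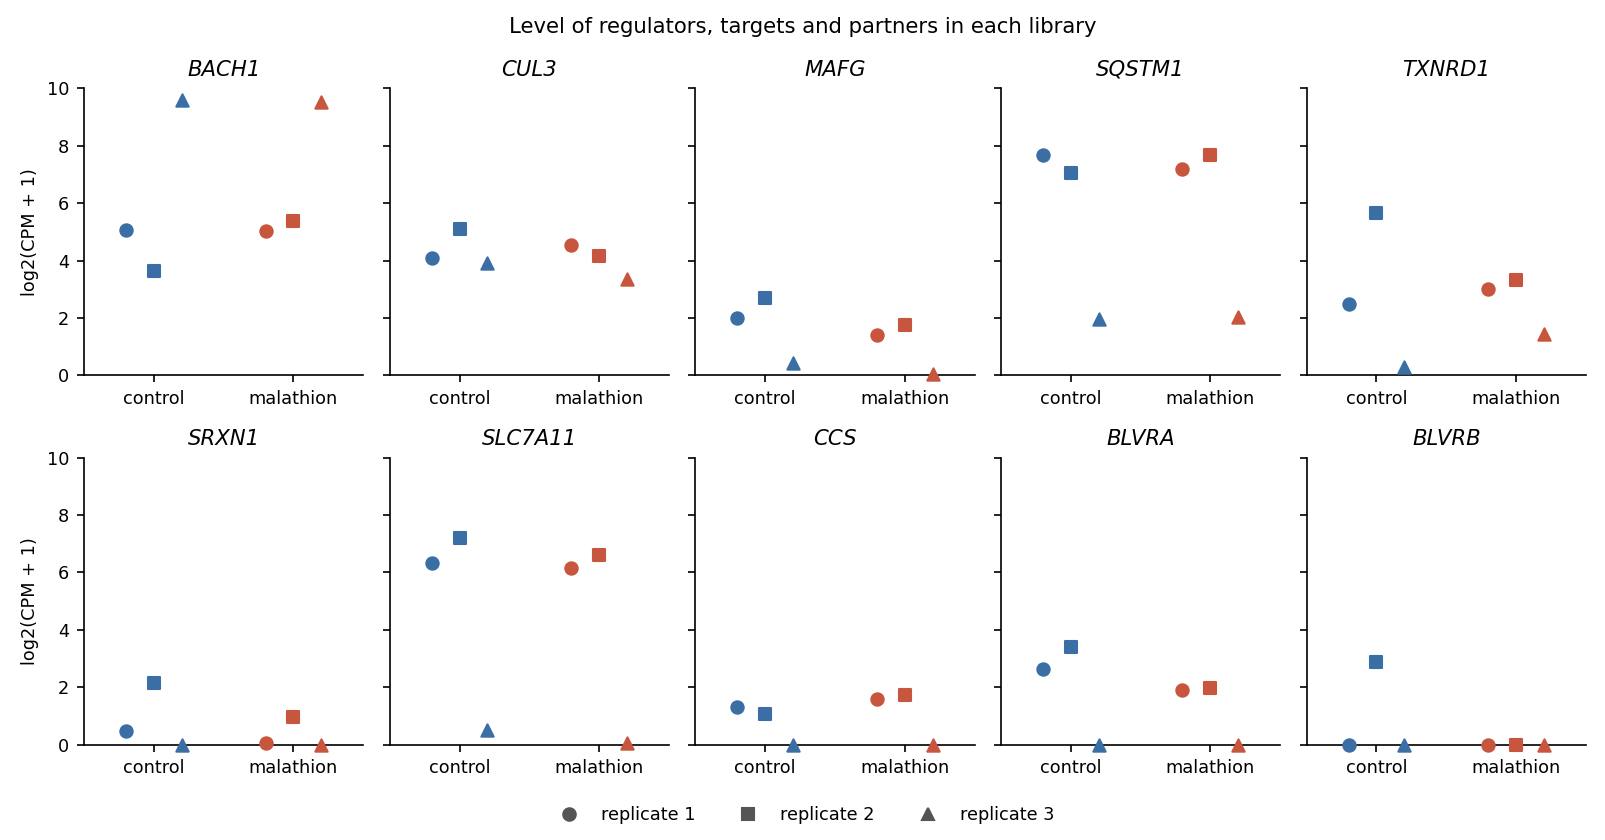
Level of regulators (BACH1, CUL3, MAFG, SQSTM1), NRF2 targets (TXNRD1, SRXN1, SLC7A11), the SOD1 chaperone CCS and both biliverdin reductases on a log2(CPM + 1) axis, with control in blue, malathion in red and marker shape for the replicate number. On this scale of library totals BACH1 is high in both replicate 3 libraries, at 777 and 738 CPM, where SQSTM1 and SLC7A11 are low. BLVRB is read in control replicate 2 alone.

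The genes whose log2(CPM + 1) ran most like that of a member over the 6 libraries were sought among at most 4720 tested genes that had a symbol and averaged 10 CPM or more. For SOD1 they were VPS13C, MAPK14 and ARHGAP12, each at Pearson r = 0.997. For CAT they were SUSD3, POLG2 and FBXO30 (r of at least 0.999), and 208 genes had an r over 0.99. For NFE2L2 they were CENPC, TMEM184C and POLG2 (r of at least 0.998), with 93 genes over 0.99. For HMOX1 they were CKB, SUPT4H1 and UTP15 (r of at least 0.993). Each had its highest level in control replicate 2, at 59.6, 93.7 and 53.4 CPM, which follows from choosing genes like HMOX1. The 6 points share library composition and depth, so these values describe the libraries.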

How the data were processed

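MII-stage pig oocytes were measured by RNA-seq of polyadenylated RNA, amplified by a modified Smart-seq2 method, per the labels' protocols (the standard method neither marks strand nor adds molecular identifiers). The deposited files hold raw read counts per Ensembl gene, 1 file per library, and show no normalization by the authors. Tools in the submitters' processing notes were HTSeq 0.9.1, STAR 2.5.3a and DESeq2 1.20.0; the build, the annotation and any use of strand are not stated there, so no coordinates are printed. The 5 closing rows for reads given to no gene held 36.7% to 42.6% of a file and were left out. Reads that align to several places count for no gene, which can lower genes with near-identical copies. A name table gave symbols to 14857 of 25880 identifiers.

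CPM were computed on the sum of gene rows. Groups were compared with edgeR 4.0.16 (R 4.3.3): quasi-likelihood F test, two-sided, TMM factors, filterByExpr (minimum count 10, minimum total 15), Benjamini-Hochberg over 10678 genes, threshold 0.05. The biological coefficient of variation was 1.10. Alternatives were other scaling factors, no filter, DESeq2 1.42.0, limma-voom (limma 3.58.1), a replicate block and libraries left out. The fitting procedure was tested on simulated data in which all libraries shared a common mean profile. That test does not cover the unlike composition of the replicate 3 libraries. No library was a duplicate of another (chi-square per degree of freedom at least 47.2).

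Same-numbered control and malathion libraries deviated together from their group means (r across genes 0.539, 0.473 and 0.599 for replicates 1, 2 and 3). This is taken from the data, since no label says what a number marks. Control replicate 1 and malathion replicate 2 reached 0.502 as well, and control replicate 2 and malathion replicate 1 reached 0.405. With replicate 3 far from each group mean the others deviate together whatever their number, so these values do not match numbers 1 and 2. The members and lists were chosen with earlier results of these data known. Named genes were all members, 11 further genes set by name (FTH1 was not matched), the 2 tested genes with the highest mean CPM of each pathway list, and the 3 genes most like SOD1, CAT, NFE2L2 and HMOX1. Genes named among markers, SOD3, GPX4, NOX1 and NOX5 were named after their values were seen. Of the genes this rule names, 1 is not reported here. Unmatched genes included MAFK, TXN, ABCC4, GPX1, CYBB and ABCG2 of the pathway lists. Promoter and protein sequences were not analysed here.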

Additional observations from a re-analysis of the deposited data

How the results depend on the processing

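No member was called in any fit but the one without the filter on low counts, where HMOX1 was 1 of 60 genes called. Leaving out 1 library in turn gave 0 to 3 genes called, 3 without malathion replicate 1 or 2, none of them a member. The replicate block called 0 genes, with 120 at an unadjusted p under 0.05 in place of 383, among them no member (KEAP1 at −2.56, HMOX1 at −2.98), and changed no call.

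Signs of uncalled log2 fold changes (malathion minus control) turned as follows, and the cause was not tested. With library totals GCLM stood at −0.27. With limma-voom, SOD1 stood at −0.70, CAT at −0.025, NFE2L2 at −0.046 and GCLM at −0.68. With the replicate block, SOD1 stood at −0.076 and GCLM at −0.58. Without both replicate 3 libraries, HMOX2 stood at 0.28, NQO1 at 0.29 and GCLM at −1.40. With control replicate 1 set against malathion replicates 1 and 2 on library totals, SOD1 stood at −0.12, HMOX1 at 0.076, HMOX2 at 0.28, GCLC at −0.085 and GCLM at −0.67.

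Leaving out 1 library gave ranges of −0.88 to 1.39 for SOD1, −0.080 to 1.27 for SOD2, −0.28 to 0.51 for NFE2L2, −6.54 to 0.59 for HMOX1, −0.67 to 0.25 for HMOX2, −2.48 to 2.05 for NQO1, −2.52 to 3.23 for GCLC and −4.10 to 3.73 for GCLM. For the log2 ratio of HMOX1 to HMOX2 the range was −3.08 to 0.74, and for SOD1 to SOD2 −2.37 to 1.00. The paired sign-flip test of NFE2L2 to KEAP1 gave an exact p of 0.25, its smallest possible value. Group means of the summed CPM of the members and of 4 marker lists moved by less than 1 SD under 3 other scalings. The SDs hold the gap of the replicate 3 libraries (members in control 411 ± 343 CPM), so this criterion could hardly fail. With TMM factors the mean of the members fell to 301 CPM in control. That of oocyte markers in malathion libraries fell from 74764 to 42447 CPM, and that of macrophage and blood markers in control from 26.8 to 9.94 CPM. KEAP1 had 41 counts at most in a library, and counting error alone spans 0.522 to 1.21 CPM at 24 counts; the library with 0 counts of it had the highest total.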
